A study of Homo sapiens with 12 samples.

Results

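The genes described here encode proteins that the liver secretes into plasma for blood clotting, and they were taken from the deposited table by name. The 10 members are the fibrinogen chain genes FGA, FGB and FGG, the procoagulant factor genes F2, F5, F7 and F10, the anticoagulant genes PROC and SERPINC1, and the plasminogen gene PLG. They are 10 of 59191 features in the table. The rule lists them by name and sets no limit on a measured value, although it was written with earlier results of these data known. RNA was sequenced from Huh7 cells, a line established from a human hepatocellular carcinoma, in 12 libraries that form 4 groups of 3. The groups were cells given disulfiram, cells given thalidomide, cells given both drugs (the combination), and control cells, whose columns carry the prefix of the solvent DMSO. Disulfiram inhibits aldehyde dehydrogenases and thalidomide binds cereblon, a substrate receptor of a ubiquitin ligase. The sources used here do not state the units of the doses, how long the cells were treated or how many reads were taken. The labels call the libraries single-cell and carry a preparation text about dissociated patient tissue, whereas the table holds 1 value per gene for each library of a cell line, so the preparation and its strand are not known.

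Fibrinogen is a secreted protein built from pairs of 3 different chains, and thrombin cuts it so that it polymerises into the fibrin of a clot. Thrombin arises from prothrombin through the activated factor X complex, which uses factor V as its cofactor and is started by factor VII bound to tissue factor. Protein C and antithrombin restrain this cascade, and plasmin, made from plasminogen, dissolves fibrin. Hepatocytes make all of these proteins, and in the liver the fibrinogen genes are classical acute phase genes that interleukin-6 induces through STAT3, with help from C/EBP factors.

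The promoters of the fibrinogen genes, which are the most abundant members, and of the members that fell with disulfiram are shown, since the comparisons below are mainly about them. Each window runs from 250 bases before to 50 bases after the RefSeq start site (GRCh38.p14) and is written 5′ to 3′ on the strand of the gene. Capitals mark matches, on either strand, to CTGGGA (the core of the interleukin-6 response element), ACTTTG (an HNF4 core) or TTGCNNAA (a C/EBP site). The windows of FGA (chr4:154590693-154590992, minus strand), FGB (chr4:154562730-154563029, plus strand) and FGG (chr4:154612607-154612906, minus strand) are as follows.
FGA: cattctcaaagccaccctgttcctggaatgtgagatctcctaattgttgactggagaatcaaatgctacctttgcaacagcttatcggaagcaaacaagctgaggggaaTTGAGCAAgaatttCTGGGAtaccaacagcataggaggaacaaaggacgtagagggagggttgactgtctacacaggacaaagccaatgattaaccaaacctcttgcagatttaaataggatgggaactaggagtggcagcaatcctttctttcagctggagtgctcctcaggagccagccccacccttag
FGB: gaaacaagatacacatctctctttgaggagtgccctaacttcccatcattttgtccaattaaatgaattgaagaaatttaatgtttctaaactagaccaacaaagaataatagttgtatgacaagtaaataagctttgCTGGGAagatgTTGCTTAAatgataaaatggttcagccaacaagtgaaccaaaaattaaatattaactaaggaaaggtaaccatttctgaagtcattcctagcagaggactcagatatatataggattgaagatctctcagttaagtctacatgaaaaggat
FGG: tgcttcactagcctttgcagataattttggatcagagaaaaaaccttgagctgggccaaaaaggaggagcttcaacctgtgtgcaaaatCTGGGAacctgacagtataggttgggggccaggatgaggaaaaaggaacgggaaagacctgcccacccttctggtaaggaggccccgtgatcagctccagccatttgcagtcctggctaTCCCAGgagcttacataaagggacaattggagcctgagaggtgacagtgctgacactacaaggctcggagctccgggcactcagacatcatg
The windows of F5 (chr1:169586432-169586731, minus strand), F7 (chr13:113105541-113105840, plus strand), F10 (chr13:113122549-113122848, plus strand) and PROC (chr2:127418177-127418476, plus strand) are as follows.
F5: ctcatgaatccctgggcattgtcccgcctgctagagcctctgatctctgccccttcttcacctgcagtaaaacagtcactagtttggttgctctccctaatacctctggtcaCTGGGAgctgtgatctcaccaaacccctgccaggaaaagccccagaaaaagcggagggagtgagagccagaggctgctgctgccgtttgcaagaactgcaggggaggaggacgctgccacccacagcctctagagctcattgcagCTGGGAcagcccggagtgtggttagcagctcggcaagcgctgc
F7: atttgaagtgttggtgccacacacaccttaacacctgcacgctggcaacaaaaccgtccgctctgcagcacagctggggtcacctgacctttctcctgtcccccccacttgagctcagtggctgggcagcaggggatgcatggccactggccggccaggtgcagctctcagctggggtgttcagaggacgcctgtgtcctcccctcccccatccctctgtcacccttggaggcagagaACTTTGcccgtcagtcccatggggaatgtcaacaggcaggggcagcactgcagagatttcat
F10: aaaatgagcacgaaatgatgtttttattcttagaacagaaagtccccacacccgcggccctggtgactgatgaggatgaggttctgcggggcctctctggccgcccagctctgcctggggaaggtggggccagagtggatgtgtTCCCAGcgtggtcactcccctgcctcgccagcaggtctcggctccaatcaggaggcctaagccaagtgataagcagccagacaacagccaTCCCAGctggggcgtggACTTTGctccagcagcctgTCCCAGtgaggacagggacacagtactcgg
PROC: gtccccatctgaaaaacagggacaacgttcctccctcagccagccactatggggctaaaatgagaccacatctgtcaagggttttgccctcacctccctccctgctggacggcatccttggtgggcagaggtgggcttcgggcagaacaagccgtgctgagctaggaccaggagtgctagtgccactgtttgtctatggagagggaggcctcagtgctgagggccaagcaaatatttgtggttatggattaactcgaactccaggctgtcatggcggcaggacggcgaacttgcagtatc
RefSeq windows were at hand for 9 of the 10 members. CTGGGA was found in 7 of these 9 windows, against 33.3% of all 35116 windows of the same length. ACTTTG was found in 2 of 9 windows (F7 and F10), against 11.9%, and the C/EBP letters in 2 of 9 (FGA and FGB), against 10.5%. FGA and FGB each held CTGGGA and the C/EBP letters within the last 141 bases before the start. FGG held CTGGGA at 161 and 42 bases before its start and none of the other motifs. No motif overlapped another in the windows shown. A match describes these letters only and was not tied to binding of a factor.

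In control cells the order of the members by TPM (a length-scaled share of all transcripts) was FGA, FGB, FGG, F10, F2, PROC, F5 and F7. Their control means ran from 258.2 ± 69.5 TPM for FGA to 14.4 ± 1.72 TPM for F7 (SD, n = 3). The control libraries of FGA and FGB overlapped, as did those of FGG and F10, F10 and F2, and F2 and PROC. FGB stood above FGG, PROC above F5 and F5 above F7 in every control library. SERPINC1, which encodes antithrombin, was at 0.10 to 0.53 TPM in all 12 libraries, and PLG at 0.0 to 0.29 TPM. Both stayed under the filter of 1 TPM in at least 3 libraries and were not tested, which left 8 of the 10 members and 15352 genes in all. All 8 hepatocyte markers checked were present, at a summed 3782 to 3846 TPM with disulfiram, 5124 to 6858 TPM with thalidomide, 3386 to 4223 TPM with the combination and 3945 to 6283 TPM in control. In bulk samples, fewer cells of a kind and less RNA per cell cannot be told apart.

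Gene positions are those of hg38 with GENCODE 29, and every member is an annotated protein-coding gene. The fibrinogen genes lie side by side on chromosome 4, with FGB at 154562956 to 154571086 on the plus strand, FGA at 154583126 to 154590766 and FGG at 154604134 to 154612967, both on the minus strand. F7 (113105788 to 113120681) and F10 (113122814 to 113149529) are neighbours on the plus strand of chromosome 13. F2 lies on chromosome 11 at 46719180 to 46739506, F5 on chromosome 1 at 169514166 to 169586588, and PROC on chromosome 2 at 127418427 to 127429246. SERPINC1 lies on chromosome 1 at 173903804 to 173917378 and PLG on chromosome 6 at 160702238 to 160753315. Among the members only F10 has an exon that overlaps an exon of another annotated gene, the antisense AL137002.2, which was at 0.41 to 0.78 TPM.

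With disulfiram 4 of the 8 tested members fell against control (F5, F7, F10 and PROC) and 0 rose, where 4.52% of all tested genes were lower and 8.73% higher. The other 4 (FGA, FGB, FGG and F2) did not pass the threshold, and all had a log2 fold change below 0, FGB by about as much as F5 and F7. Whether the fibrinogen genes differ from the other members in their change was not tested. Changes are log2 fold changes on log2(TPM + 1) with their SE, tested with limma over all 12 libraries, and the threshold was a Benjamini-Hochberg adjusted p below 0.05. The median over the 8 members was -0.56, beside 0.09 over all tested genes. The labels do not state that the libraries of a group came from separate cultures, and the p-values then reflect the spread among libraries, which may be technical.

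FGA, whose chain carries the fibrinopeptide A that thrombin releases first, was at 196.8, 214.1 and 230.9 TPM with disulfiram, against 338.4, 215.0 and 221.2 TPM in control. The groups overlapped, and only the first control library stood clearly higher (-0.24 ± 0.21, adjusted p = 0.504). FGB, whose chain is often described as rate-limiting for assembly, was at 146.1, 116.9 and 156.1 TPM with disulfiram, against 271.5, 197.5 and 170.05 TPM in control. Every disulfiram library lay below every control library, yet the difference was not past the threshold (-0.59 ± 0.28, adjusted p = 0.204). FGG, whose chain holds the site through which fibrinogen binds the platelet integrin, was at 88.3, 72.3 and 98.8 TPM with disulfiram, against 125.2, 104.2 and 91.4 TPM in control. The groups overlapped (-0.30 ± 0.25, adjusted p = 0.479). Summed over the 3 chains, the level was 440 ± 41.9 TPM with disulfiram and 578 ± 137 TPM in control (SD, n = 3 each).

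**Figure D1:**
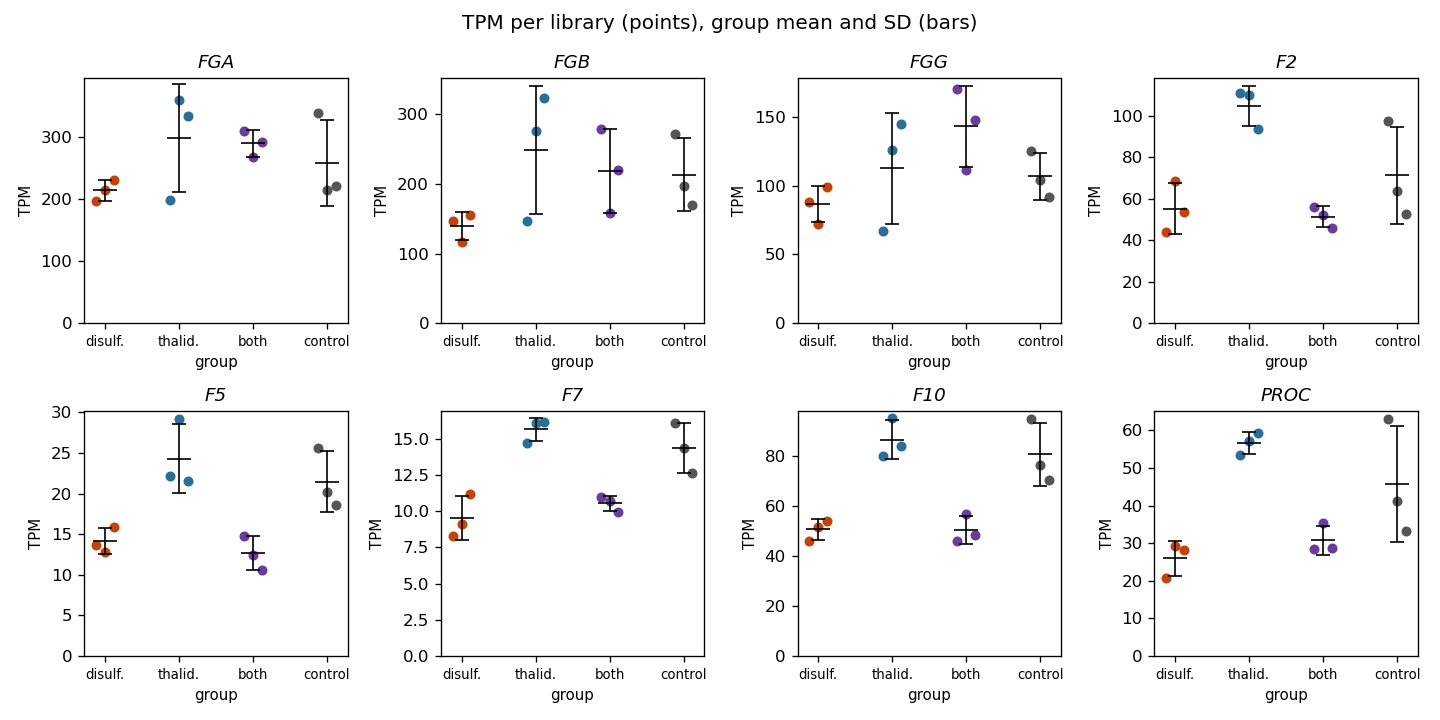
TPM of the 8 tested members (vertical axis, from 0) in each library (points) by group (disulfiram, thalidomide, both drugs, control), with the group mean and SD as bars. For F5, F7, F10 and PROC the 3 disulfiram libraries lie below the 3 control libraries, while FGA and FGG overlap between these groups.

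F10, the gene of the factor X zymogen, was at 46.1, 51.8 and 54.3 TPM with disulfiram, against 95.0, 76.6 and 70.75 TPM in control. The groups did not overlap, and F10 fell (-0.65 ± 0.12, adjusted p = 0.00565). F7, which encodes the factor VII that tissue factor binds, was at 8.27, 9.09 and 11.2 TPM with disulfiram, against 16.1, 14.4 and 12.65 TPM in control. It fell as well, with no overlap (-0.55 ± 0.12, adjusted p = 0.0132). F5, the cofactor gene, was at 13.7, 12.8 and 15.9 TPM with disulfiram, against 25.7, 20.2 and 18.6 TPM in control, and fell by 0.56 ± 0.16 (adjusted p = 0.039). The lowest control library was above the highest disulfiram library. F2, the prothrombin gene, was at 43.7, 68.5 and 53.4 TPM with disulfiram, against 97.35, 63.9 and 52.55 TPM in control. The groups overlapped, and F2 was not past the threshold (-0.34 ± 0.20, adjusted p = 0.315).

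PROC encodes protein C, the vitamin K-dependent protease that, once activated, inactivates factors Va and VIIIa. It was at 20.6, 29.2 and 28.15 TPM with disulfiram, against 62.9, 41.1 and 33.3 TPM in control, and fell without overlap (-0.76 ± 0.20, adjusted p = 0.0267). The control libraries of PROC spread widely, the first being the highest. Without control 1, control 2, disulfiram 1 or disulfiram 3 the change was -0.51, -0.81, -0.61 or -0.82, with adjusted p = 0.0791, 0.052, 0.0998 or 0.0532, not past the threshold. F5 missed it without control 1 or 2 or any 1 disulfiram library (adjusted p = 0.055 to 0.147 over these 5 removals), and F7 without control 1 (adjusted p = 0.0582) or disulfiram 1 (adjusted p = 0.0537). F10 remained past the threshold without any 1 library and under all 25 alternatives run.

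Some other secreted liver proteins moved in the same direction. Of the 8 hepatocyte markers, 2 fell and 0 rose with disulfiram and with the combination. Of all tested genes, 4.52% were lower and 8.73% higher with disulfiram, and 6.7% and 18.4% with the combination. TTR, which encodes the thyroxine carrier transthyretin, fell with disulfiram (-0.85 ± 0.21, adjusted p = 0.0196) and with the combination (-0.99 ± 0.21, adjusted p = 0.0079). AHSG, which encodes fetuin-A, fell as well (-1.43 ± 0.38 and -1.35 ± 0.38, adjusted p = 0.0275 and 0.0247). The first control library was the highest for both genes, with AHSG at 51.5, 19.35 and 14.5 TPM and TTR at 114.8, 67.3 and 72.8 TPM in control. How these marker falls depend on single libraries is not reported here. ALB, the albumin gene, was at -0.65 ± 0.23 and -0.32 ± 0.23 (adjusted p = 0.0867 and 0.297). Their relation to the falls of the members was not tested.

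Thalidomide alone changed no member past the threshold. Limma called 0 of the 8 members and 0.0% of all tested genes, of which 873 had an unadjusted p below 0.05. All 8 members had a log2 fold change above 0, from 0.01 to 0.59, with a median of 0.17 beside -0.03 over all tested genes, although FGB without thalidomide 3 was at -0.06 and FGG without control 3, thalidomide 2 or thalidomide 3 at -0.09, -0.10 or -0.20. F2 was at 110.7, 109.9 and 93.6 TPM with thalidomide, against 97.35, 63.9 and 52.55 TPM in control, so that the lowest thalidomide library lay just below the highest control (0.59 ± 0.20, adjusted p = 0.751). PROC was at 53.4, 57.15 and 59.3 TPM with thalidomide, all within the range of the control libraries (0.35 ± 0.20, adjusted p = 0.919). The fibrinogen genes varied most between thalidomide libraries. FGG was at 67.2, 125.6 and 144.7 TPM, FGB at 146.3, 276.1 and 323.8 TPM and FGA at 199.1, 360.7 and 334.8 TPM, with the first library lowest for all 3 genes.

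F5, F7 and F10 fell with the combination, and FGA, FGB, FGG, F2 and PROC did not pass the threshold. Against the same 3 control libraries that the other comparisons share, these were 3 falls among the 8 tested members and 0 rises, where 6.7% of all tested genes were lower and 18.4% higher. F10 was at 46.0, 56.9 and 48.4 TPM with the combination, all below the 3 control libraries (-0.66 ± 0.12, adjusted p = 0.00461). F5 was at 14.8, 12.5 and 10.6 TPM (-0.72 ± 0.16, adjusted p = 0.0103) and F7 at 10.98, 10.7 and 9.96 TPM (-0.41 ± 0.12, adjusted p = 0.0341), also without overlap with control. PROC was at 28.3, 35.2 and 28.8 TPM, its highest library above the lowest control (-0.51 ± 0.20, adjusted p = 0.0744). F2 was at 56.0, 52.2 and 45.8 TPM and overlapped control as well (-0.42 ± 0.20, adjusted p = 0.137). The median of the 8 members was -0.41, beside 0.20 over all tested genes.

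Scaling moved these values. The median of all genes stood 0.20 above 0 for the combination against control, and median-of-ratios scaling, which takes such a shift out, gave -0.86 for F10, -0.91 for F5 and -0.59 for F7. Under the same scaling PROC was at -0.71 and past the threshold (adjusted p = 0.0321), while falls among all tested genes went from 1029 to 1877. Without combination 3, F5 was at -0.61 and F7 at -0.37 (adjusted p = 0.0513 and 0.117), which left F10 as the 1 member past the threshold. F7 also missed it without combination 1 (adjusted p = 0.0777), control 1 (adjusted p = 0.119) or control 2 (adjusted p = 0.0772), and PROC passed it without control 3 (-0.71, adjusted p = 0.0334).

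**Figure D2:**
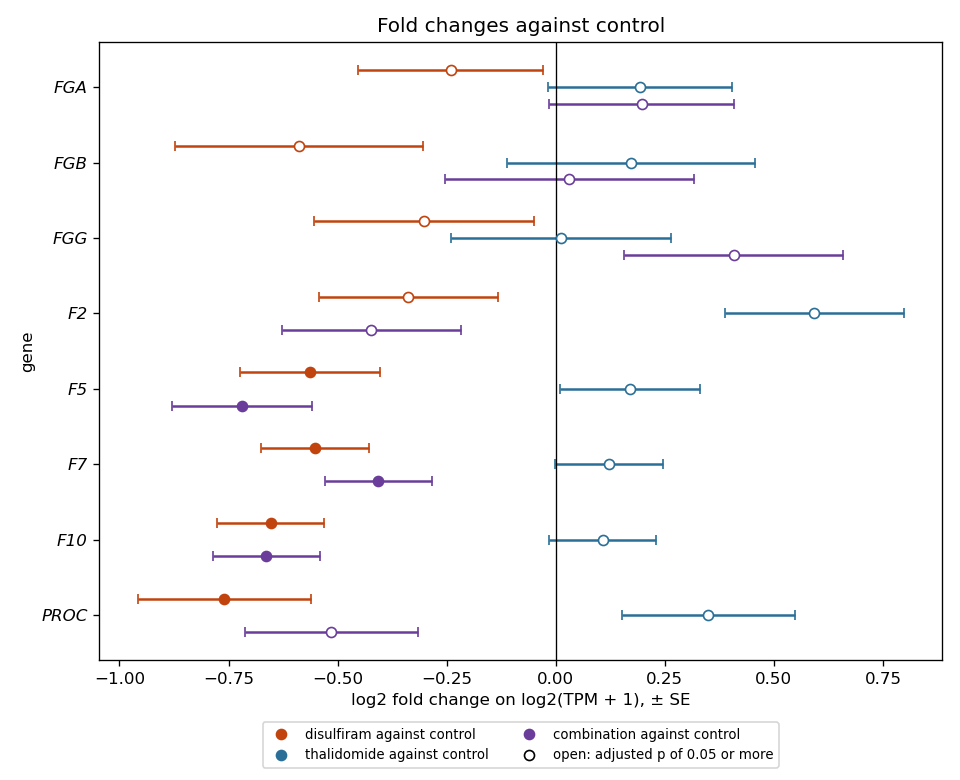
Log2 fold changes against control on log2(TPM + 1) (horizontal axis) with their SE as bars, for the 8 tested members (vertical axis) and the 3 treated groups. Filled points, those with an adjusted p below 0.05, are F5, F7, F10 and PROC for disulfiram and F5, F7 and F10 for the combination.

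With the combination FGA was at 310.65, 267.9 and 291.6 TPM, FGB at 279.3, 158.4 and 220.02 TPM and FGG at 170.07, 111.5 and 147.75 TPM. All 3 overlapped the control libraries, with log2 fold changes of 0.20 ± 0.21, 0.03 ± 0.28 and 0.41 ± 0.25 (adjusted p = 0.497, 0.944 and 0.233). None of these has a settled direction, since FGA and FGB turned to -0.00 and -0.17 with median-of-ratios scaling and all 3 turned to -0.12, -0.37 and -0.07 with a correction for GC content. FGG stayed above 0 with median-of-ratios scaling, at 0.21. The GC correction, like that scaling, also takes out a shift of all genes. The summed level of the chains was 652 ± 111 TPM with the combination, against 578 ± 137 TPM in control (SD, n = 3 each).

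Between the combination and disulfiram alone, no member passed the threshold. Limma called 0 of the 8 members, and 0.00651% of all tested genes, 1 gene of 15352 (RDM1, which was lower and is named after its value was seen), while 2631 genes had an unadjusted p below 0.05. Every combination library was above every disulfiram library for FGA (0.44 ± 0.21, adjusted p = 0.303), FGB (0.62 ± 0.28, adjusted p = 0.293) and FGG (0.71 ± 0.25, adjusted p = 0.265). How many of all tested genes also lacked overlap was not counted, so this is a description and not a result about the fibrinogen genes. The other 5 tested members overlapped, with log2 fold changes from -0.16 for F5 to 0.25 for PROC. F10 averaged 50.4 ± 5.72 TPM with the combination and 50.7 ± 4.20 TPM with disulfiram (SD, n = 3 each). As a ratio within each library, FGG over F10 was 1.96 to 3.70 with the combination and 1.40 to 1.92 with disulfiram, beside 0.837 to 1.72 with thalidomide and 1.29 to 1.36 in control. The ratio of F7 to F10 stayed between 0.169 and 0.239 in all 12 libraries.

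GC content moved with this difference. The longest annotated transcripts of FGG, FGB and FGA hold 38.7%, 41.4% and 43.4% GC, F5 45.5%, and F7, F2, F10 and PROC 57.4% to 59.7%. Across 15042 genes, Spearman's rho of the log2 fold change with GC content was -0.63 for the combination against disulfiram, -0.44 for the combination against control and 0.00 for disulfiram against control. These are correlations across genes, which are not independent replicates. Libraries of a group also differed in their GC trend. The rho of each library's deviation from its group mean with GC content was -0.49, 0.60 and -0.30 with disulfiram. With the combination it was -0.59, 0.66 and -0.37. It was 0.13, -0.18 and 0.04 in control, and 0.48, -0.06 and -0.39 with thalidomide. Such deviations cancel out within a group, so trends of both signs are built in and tell nothing about the rho between groups. The libraries with the highest rho (disulfiram 2, combination 2 and thalidomide 1) also had the lowest FGG and FGB of their groups. Control went the other way: control 1, at 0.13, had the highest FGG and FGB of its group. FGA was the lowest of its group in combination 2 and thalidomide 1. In disulfiram 2 it was at 214.1 TPM, above disulfiram 1 at 196.8 TPM. With the GC correction, an alternative chosen after seeing the data, the combination stood above disulfiram by 0.33 for FGG, 0.31 for FGB and 0.19 for FGA. The correction also recentres each library. The median of all tested genes went from 0.09 to 0.01 for disulfiram against control. For the combination against control it went from 0.20 to 0.01. Moves of single genes with the correction therefore include that shift. The falls of F7, F10 and PROC with disulfiram were -0.64, -0.75 and -0.85 with that correction and past the threshold, and F5 was at -0.64, also past it. Falls among all tested genes for disulfiram against control went from 694 to 1577 with the correction. FGB with disulfiram was at -0.68 and then past the threshold (adjusted p = 0.0475), but not when the replicate block was added to the correction.

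**Figure D3:**
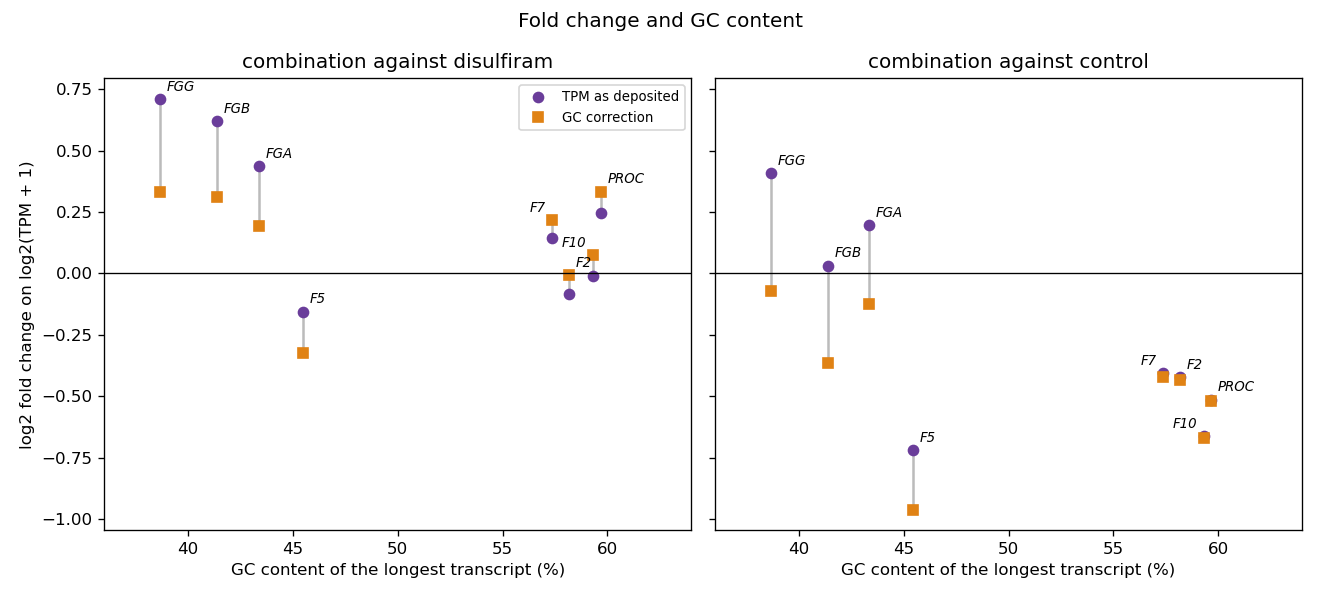
Log2 fold change on log2(TPM + 1) (vertical axis) against the GC content of the longest transcript in percent (horizontal axis) for the 8 tested members, for the combination against disulfiram (left) and against control (right). Circles are from TPM as deposited and squares after the GC correction; the fibrinogen genes, at 38.7% to 43.4% GC, come down with the correction and in the right panel cross 0.

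Set against thalidomide, whose 3 libraries both comparisons share, disulfiram and the combination each had lower levels of 5 of the 8 tested members, F2, F5, F7, F10 and PROC, and higher levels of 0. For the combination against thalidomide 7.24% of all tested genes were lower and 25.0% higher, and for disulfiram against thalidomide 5.2% were lower and 11.9% higher. F2 differed by -1.02 ± 0.20 with the combination (adjusted p = 0.0053) and by -0.93 ± 0.20 with disulfiram (adjusted p = 0.00963), each group lying wholly below the thalidomide libraries. PROC differed by -0.86 ± 0.20 with the combination (adjusted p = 0.00945) and by -1.11 ± 0.20 with disulfiram (adjusted p = 0.00311). F10 differed by -0.77 ± 0.12 and -0.76 ± 0.12 for the combination and for disulfiram, and F5 by -0.89 ± 0.16 and -0.73 ± 0.16. All 5 held in both comparisons without any 1 library. The fibrinogen genes were not past the threshold in either comparison, the largest difference being FGB with disulfiram (-0.76 ± 0.28, adjusted p = 0.0886). Median-of-ratios scaling brought that difference past it (-0.90, adjusted p = 0.03), as did the GC correction (-0.91, adjusted p = 0.0112) and the replicate block added to that correction (adjusted p = 0.0235). Lower genes among all tested went from 798 to 1240, 1713 and 1595 under these settings, in the same order. Without thalidomide 1, FGA and FGB were past the threshold for disulfiram against thalidomide (-0.70 and -1.10, adjusted p = 0.0228 and 0.0143).

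The interaction asks whether the combination differs from the sum of both single-drug changes on the log2 scale. Limma called 0 of the 8 members and 0.0% of all tested genes, of which 1580 had an unadjusted p below 0.05. FGG had the highest value (0.70 ± 0.36, adjusted p = 0.466) and F2 the lowest (-0.68 ± 0.29, adjusted p = 0.466). F10, F7 and PROC were at -0.12, 0.02 and -0.10.

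**Figure D4:**
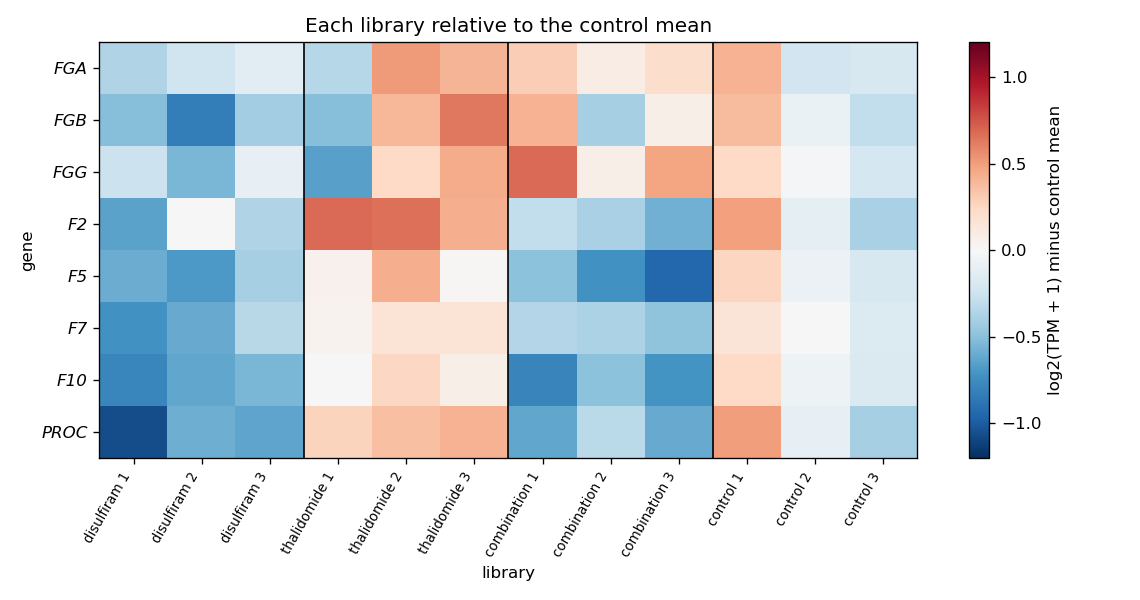
Level of each tested member (vertical axis) in each library (horizontal axis) as log2(TPM + 1) minus the control mean, with red above and blue below it. F5, F7, F10 and PROC are blue in all disulfiram and combination libraries, while FGA and FGG are red in all 3 combination libraries.

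Within groups the closest pairs of members were FGB with FGG and F10 with PROC. As deviations from the group means over the 12 libraries, they had a Pearson r of 0.99 and 0.89. Among the fibrinogen genes FGA had 0.85 with FGB and 0.83 with FGG, and among F2, F5, F7, F10 and PROC the values ran from 0.46 (F5 with PROC) to 0.89. Between a fibrinogen gene and another member they ran from 0.01 (FGG with F2) to 0.62 (FGA with F7), so that these ranges overlapped. Such values are descriptions, since genes of a library share its depth and its GC composition. The shares of the chains in their summed TPM differed between groups and were not tested. FGB made up 31.7 ± 2.48% with disulfiram, 37.3 ± 2.61% with thalidomide and 33.2 ± 3.65% with the combination, against 36.8 ± 1.5% in control (SD, n = 3 each). The disulfiram libraries, at most 33.9%, lay wholly below those of control and thalidomide. FGG made up 20.7% to 22.4% with the combination, above every other library, against 17.9% to 20.5% with disulfiram, 16.3% to 18.0% with thalidomide and 17.0% to 20.2% in control. FGA overlapped between all groups, at a mean of 44.5% to 48.8%. The first combination library had the highest FGG of all 12 and the first thalidomide library the lowest.

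By a fixed measure of likeness, the Pearson r over the 12 libraries with the mean of the standardised FGA, FGB and FGG values, the nearest tested genes outside the members were HMGA2 (0.95), TMTC4 (0.93), CNN3 (0.93), ABCC9 (0.93) and CTPS2 (0.91). They were picked as the highest values among all tested genes, and group differences and GC trends of the libraries were not taken out. The likeness is a description and was not tested. HMGA2, a chromatin architectural protein of fetal tissues, was at 9.35, 7.80 and 10.4 TPM with disulfiram, 10.7, 14.6 and 15.4 TPM with thalidomide, 16.4, 11.5 and 14.2 TPM with the combination and 14.4, 11.7 and 9.75 TPM in control. Its highest library was the first combination library, as for FGG. CNN3, an actin-binding calponin, ranged from 50.5 to 75.1 TPM over the 12 libraries. CTPS2, which makes CTP, ranged from 16.7 to 22.2 TPM.

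Single genes of the wider clotting system changed. Of 42 tested genes in 7 lists around the members, 6 rose and 5 fell with disulfiram, and 6 rose and 7 fell with the combination. Of these, 12 are regulators, and among the other 30 there were 3 rises and 3 falls with disulfiram and 4 rises and 3 falls with the combination. Beside the shares of all tested genes given above, these counts are too few to read as a result about the clotting system, and rises with the combination were a smaller share of the 30 genes than of all tested genes. The median over these genes was -0.07 for disulfiram and -0.10 for the combination, beside 0.09 and 0.20 over all tested genes. With thalidomide 0 of the 42 genes passed. The lists were drawn up with earlier results of these data known, so their counts are no independent evidence of direction.

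Among vitamin K-dependent proteins and enzymes of the vitamin K cycle, 6 of 8 genes were tested, and 1 fell with disulfiram and with the combination. That gene was NQO1, a quinone reductase, at 380.9 ± 26.1 TPM with disulfiram, 371.8 ± 6.23 TPM with the combination and 615.7 ± 71.5 TPM in control (SD, n = 3 each), which fell by 0.69 ± 0.11 and 0.72 ± 0.11 on the log2 scale. GGCX, the carboxylase that F2, F7, F10 and PROC products all need, was at -0.11 ± 0.10 and -0.25 ± 0.10 (adjusted p = 0.525 and 0.0858). For GGCX with the combination, median-of-ratios scaling (-0.45, adjusted p = 0.0314), quantile normalization (-0.37, adjusted p = 0.048) and the GC correction (-0.47, adjusted p = 0.031) each brought the fall past the threshold. Falls among all tested genes also went from 1029 to 1877, 1748 and 1868 under these settings, in the same order. VKORC1, the reductase that warfarin blocks, was at 0.22 ± 0.11 and 0.06 ± 0.11 (adjusted p = 0.22 and 0.684), and with the combination at -0.14 under median-of-ratios scaling. F9 was listed at 0 in all 12 libraries. The secretion receptors of factor V, LMAN1 and MCFD2, were at -0.22 ± 0.23 and -0.06 ± 0.18 with disulfiram and 0.32 ± 0.23 and 0.32 ± 0.18 with the combination, and 0 of these 2 genes passed in either comparison. LMAN1 with the combination turned to -0.13 with the GC correction.

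Of the other coagulation factors, 3 of 9 genes were tested. KNG1, which encodes high molecular weight kininogen of the contact pathway, fell with disulfiram (-0.70 ± 0.20, adjusted p = 0.0367) and with the combination (-0.64 ± 0.20, adjusted p = 0.0354), and was past the threshold under 16 and 19 of 25 alternatives. It was at 16.85, 11.2 and 17.5 TPM with disulfiram and 17.7, 14.2 and 15.0 TPM with the combination, against 30.4, 24.2 and 20.75 TPM in control. F3, the tissue factor gene that starts the cascade, rose with the combination (0.70 ± 0.19, adjusted p = 0.0241) and was at 0.63 ± 0.19 with disulfiram (adjusted p = 0.0524). F3 was at 6.14, 5.18 and 4.66 TPM with the combination and 4.88, 4.48 and 5.67 TPM with disulfiram, against 1.91, 3.79 and 3.20 TPM in control. Its rise with the combination was past the threshold under 16 of 24 alternatives. It missed with no filter, median-of-ratios scaling, quantile normalization or the GC correction, with or without the replicate block. It also missed without combination 1, combination 3 or control 1.

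Of 9 inhibitor genes, 7 were tested. TFPI2, a Kunitz-type inhibitor of tissue factor with factor VIIa and of plasmin, rose with disulfiram (1.47 ± 0.25, adjusted p = 0.00286) and with the combination (1.57 ± 0.25, adjusted p = 0.00198). It was at 9.43, 4.34 and 6.47 TPM with disulfiram and 7.49, 7.28 and 6.32 TPM with the combination, against 1.05, 2.14 and 2.03 TPM in control, with no overlap. Both rises held under all 24 alternatives. SERPINA5, the protein C inhibitor, fell with the combination (-0.49 ± 0.11, adjusted p = 0.00925), at 52.7 ± 1.58 TPM beside 74.2 ± 5.55 TPM in control, and was at -0.33 ± 0.11 with disulfiram (adjusted p = 0.0587).

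Of 12 fibrinolysis genes, 9 were tested, of which 1 rose and 1 fell with disulfiram and 2 rose and 0 fell with the combination. PLAUR, the urokinase receptor, was at 23.7, 22.6 and 23.1 TPM with disulfiram and 20.6, 19.8 and 24.0 TPM with the combination, against 10.2, 12.9 and 15.5 TPM in control. It rose in both (0.81 ± 0.14 and 0.71 ± 0.14, adjusted p = 0.00395 and 0.00678) and under all 25 alternatives of each. CPB2, which encodes the fibrinolysis inhibitor TAFI, fell with disulfiram by a margin at the threshold (-0.66 ± 0.20, adjusted p = 0.0498) and was past it under 8 of 24 alternatives. ANXA2, a cell surface docking protein for plasminogen and its activator, rose with the combination by 0.27 ± 0.09 (adjusted p = 0.0486). That rise was past the threshold under 10 of 25 alternatives and kept its direction in 23. The fibrinogen-like list had 3 of 4 genes tested and 1 rise with disulfiram, ANGPTL4, a lipoprotein lipase inhibitor with a fibrinogen-like domain (1.37 ± 0.37, adjusted p = 0.0296; past the threshold under 18 of 25 alternatives). FGL1, a hepatocyte-secreted fibrinogen relative, was at -0.67 ± 0.24 with disulfiram (adjusted p = 0.0854) and -0.41 ± 0.24 with the combination (adjusted p = 0.211).

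**Figure D5:**
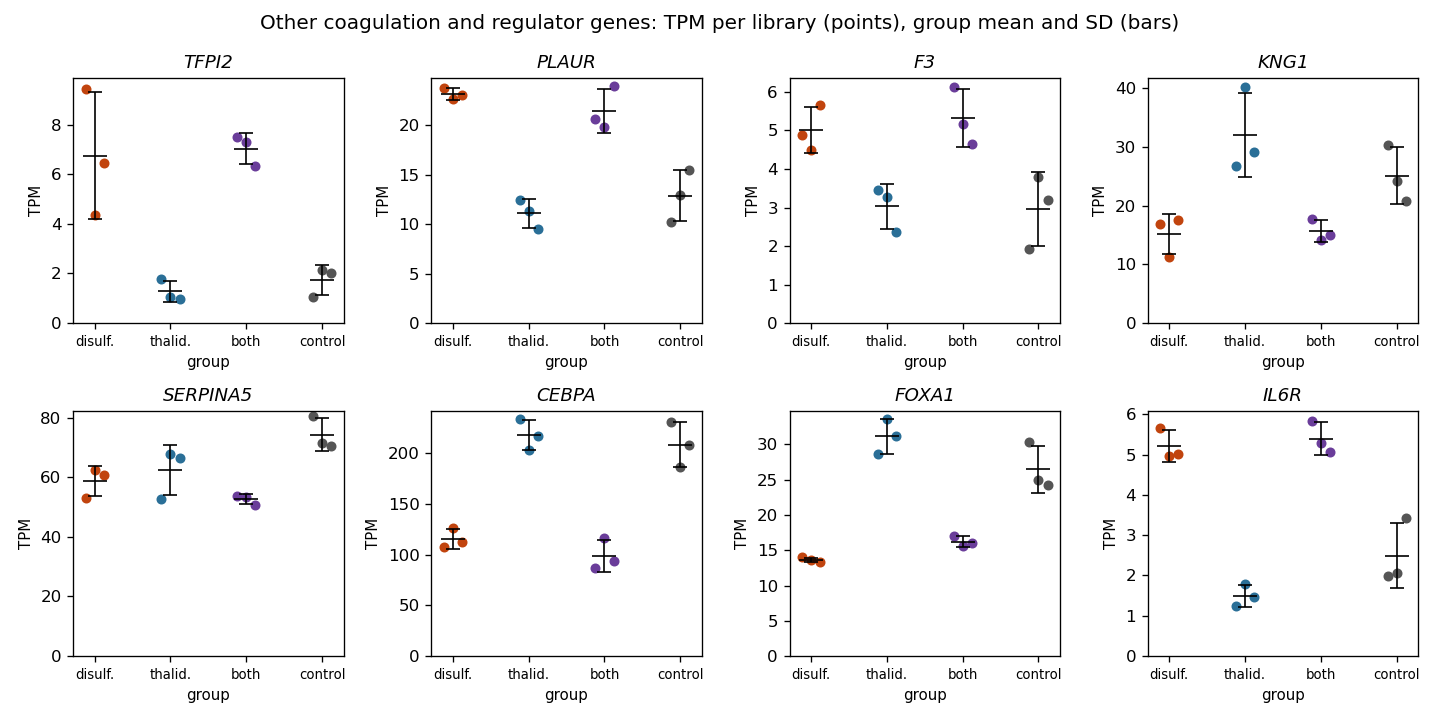
TPM (vertical axis, from 0) of 5 other clotting genes and 3 regulator genes in each library (points) by group, with the group mean and SD as bars. TFPI2, PLAUR and IL6R lie higher and CEBPA, FOXA1 and KNG1 lower with disulfiram and with the combination than in control, without overlap of the libraries.

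Of 12 regulators of the members, all tested, 3 rose and 2 fell with disulfiram, and 2 rose and 4 fell with the combination. Of all tested genes, 8.73% were higher and 4.52% lower with disulfiram, and 18.4% and 6.7% with the combination. These counts are too few to read as a result about the regulators. CEBPA, the C/EBP factor of mature hepatocytes, was at 107.4, 126.6 and 112.9 TPM with disulfiram and 86.6, 116.4 and 93.9 TPM with the combination, against 231.11, 186.6 and 208.2 TPM in control. It fell with disulfiram (-0.84 ± 0.12, adjusted p = 0.00103) and with the combination (-1.07 ± 0.12, adjusted p = 0.000257), each under all 25 alternatives. FOXA1, a pioneer factor of liver genes, was at 13.6 ± 0.341 TPM with disulfiram and 16.2 ± 0.744 TPM with the combination, beside 26.5 ± 3.32 TPM in control, and fell in both (-0.90 ± 0.10 and -0.67 ± 0.10, adjusted p = 0.000324 and 0.00185). HNF4A was not past the threshold (0.13 ± 0.10 with disulfiram and 0.09 ± 0.10 with the combination, where median-of-ratios scaling gave -0.11). FOXA2 fell with the combination (-0.36 ± 0.11, adjusted p = 0.0327), and was past the threshold under 19 of 25 alternatives.

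On the interleukin-6 side of the regulators, IL6R, the receptor subunit, rose with disulfiram (0.85 ± 0.17, adjusted p = 0.00657) and with the combination (0.90 ± 0.17, adjusted p = 0.00456). It was at 5.66, 4.96 and 5.01 TPM with disulfiram and 5.84, 5.28 and 5.06 TPM with the combination, against 1.99, 2.06 and 3.42 TPM in control. SOCS3, a feedback inhibitor that STAT3 induces, rose in both (0.88 ± 0.15 and 0.78 ± 0.15, adjusted p = 0.00374 and 0.00599) at low levels of 2.13 ± 0.237 and 1.92 ± 0.178 TPM, against 0.710 ± 0.241 TPM in control. The rise with the combination was not past the threshold with quantile normalization (adjusted p = 0.058). STAT3 rose with disulfiram by 0.33 ± 0.08 (adjusted p = 0.0197) and was past the threshold under 20 of 25 alternatives. The rise of STAT3 missed it with median-of-ratios scaling or quantile normalization, and without control 1, control 3 or disulfiram 3. Their part in the levels of the members was not tested.

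Some markers of other cell types were present. Of the marker lists, 2 of 7 immune, 1 of 5 endothelial, 4 of 6 fibroblast and stellate and 2 of 5 platelet and megakaryocyte genes reached a group mean of 1 TPM. PTPRC and CD3E, which define leukocytes and T cells, were at or below 0.16 TPM, TEK and PPBP were listed at 0 in all 12 libraries, and KDR was at or below 0.01 TPM. The immune sum was 64.6 to 131.7 TPM with disulfiram, 118.4 to 169.6 TPM with thalidomide and 87.6 to 96.4 TPM with the combination, against 104.7 to 174.2 TPM in control. CD14 made up most of it, at 49.8 to 169.3 TPM over the 12 libraries. LYZ, the lysozyme gene, rose with disulfiram (1.05 ± 0.26, adjusted p = 0.0213) and with the combination (0.84 ± 0.26, adjusted p = 0.0372), at a mean of 12.2 and 10.8 TPM, against 5.34 TPM in control. The fibroblast and stellate sum was 56.0 to 70.7 TPM with disulfiram, 54.6 to 83.9 TPM with thalidomide and 59.9 to 85.8 TPM with the combination, against 71.0 to 83.3 TPM in control, with COL1A2 at 25.6 to 45.4 TPM and LUM at 15.4 to 40.0 TPM over the 12 libraries. The endothelial sum was 3.52 to 7.42 TPM with disulfiram, 1.66 to 2.51 TPM with thalidomide and 3.83 to 5.43 TPM with the combination, against 0.79 to 1.55 TPM in control. PECAM1 made up most of that sum and rose with disulfiram (1.52 ± 0.25, adjusted p = 0.00248) and with the combination (1.31 ± 0.25, adjusted p = 0.00494), while CDH5 stayed at or below 0.19 TPM. The part of these markers in the values of the members was not tested.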

How the data were processed

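RNA of 12 Huh7 libraries was measured, and the authors deposited 1 table of TPM per gene, rounded to 2 decimals. Per the submitters' processing notes, reads were processed with HISAT2 2.0 and StringTie 1.3.0 on hg38. The annotation and filters are not given in the sources used. TPM keeps no read counts, so the depth of each library is unknown and counting error cannot be stated. As a share of a fixed total, TPM also shifts when abundant transcripts change.

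Of 59191 features, 58884 carry an Ensembl identifier, 58611 of them named in GENCODE 29. No column was left unmapped. Values were transformed to log2(TPM + 1), and the 15352 genes that reached 1 TPM in at least 3 of the 12 libraries were tested. The pseudocount of 1 makes fold changes of low genes smaller than the ratio of their means. Groups were taken from the titles and compared with limma 3.58.1 (R 4.3.3) using a trended prior variance, 1 fit over the 12 libraries, two-sided tests, Benjamini-Hochberg adjustment over all tested genes and a threshold of 0.05. Tables were joined with Python 3.11.15 and pandas 2.3.3. The fit was tested on simulated data.

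The members and lists were chosen with earlier results of these data known. Named genes are all members and, from each list, up to 4 genes past the threshold with the largest change against control, or the 2 most abundant where none passed. LMAN1, MCFD2, GGCX, VKORC1, HNF4A and CEBPA were always included. Not every gene picked by this rule is reported here. Likeness was taken as the 5 genes with the highest Pearson r. Alternatives were other pseudocounts, filters, scalings, weights, variance models and sets of libraries, a replicate block, and, added after seeing the data, a GC correction. It subtracts a lowess curve (span 0.3) of each gene's deviation on the GC content of its longest GENCODE 29 transcript. The curve is fitted for each library and so also takes out a shift of the whole library. A GC correction from a genome sequence was planned and not run, since no genome was used here. Promoter windows are from RefSeq.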

Additional observations from a re-analysis of the deposited data

How the results depend on the processing

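All 17 member values past the threshold kept their direction under 25 alternatives each (425 in all), 400 of them past the threshold, and 12 of the 17 values held throughout. The other 25 concerned F5, F7 and PROC for disulfiram against control (9, 3 and 6 alternatives) and F5 and F7 for the combination against control (1 and 6). For disulfiram against control the 4 members past the threshold became 2 (F7 and F10) with no filter and 1 (F10) when the fit held just the compared groups. Leaving out 1 library gave 1 to 4: 1 without control 1 or disulfiram 1, 2 without control 2 or disulfiram 3. Falls among all tested genes also became fewer, from 694 to 429 and 454 without control 1 or disulfiram 1. They were 465 and 436 without control 2 or disulfiram 3, 549 with just the compared groups, and 511 of 32929 genes with no filter. For the combination against control the 3 members became 6 with array weights (5 lower, 1 higher, FGG), and 1 to 4 on leaving out 1 library. Of all 15352 tested genes, array weights called 6157 higher and 2005 lower in this comparison, beside 2823 and 1029 without weights. Without combination 3, which left 1 member, 492 of all tested genes were lower. For the combination against disulfiram array weights gave 1 (FGG, 0.67, adjusted p = 0.0296). The same weights called 2097 of all tested genes higher and 805 lower there, beside 0 and 1 without weights. Against thalidomide, leaving out 1 library gave 5 for the combination and 5 to 7 for disulfiram. Without disulfiram 2 and combination 2 together, the count was 3 for disulfiram (F5 adjusted p = 0.0948) and 3 for the combination against control. With thalidomide alone and for the interaction the count was 0 under every alternative. Replicate numbers did not pair the samples by the measure used, a correlation over 0.1 in every pair: 4 of 18 same-numbered pairs had a correlation of deviations over 0.1, and 6 of 12 libraries correlated best with their own number. Between the combination and disulfiram the correlations were 0.21, 0.37 and 0.03 for replicates 1, 2 and 3, and the GC trends of these libraries shared their sign by number. With the replicate block 3 members passed for disulfiram (F5 adjusted p = 0.0517) and 2 for the combination (F7 adjusted p = 0.0545) against control, and the other counts were the same. The causes were not tested. TPM hides the depth, so the precision for low genes is unknown.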
